A study of Homo sapiens with 4 samples.

Results

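The baseline transcriptome of SY5Y cells was described from the 2 libraries labelled as treated with DMSO, of the 4 libraries in the series. They were chosen by their titles alone, and every one of the 57820 gene rows was kept. SY5Y is an established human neuroblastoma line with wild-type (not amplified) MYCN, and both groups of the series were harvested after 12 h, the other one with SGSS05-NS, a compound directed at the histone methyltransferase SETD8. DMSO is the solvent in which such compounds are dissolved, so these libraries hold the state against which a treatment would be read. The study's methods describe 2 independent biological replicates, and all error bars here are the SD of those 2 libraries. Each value is therefore a description of 2 cultures of 1 line, and no test was made.

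Neuroblastoma arises from the sympathoadrenal branch of the neural crest, the embryonic cells that also give rise to sympathetic neurons and the chromaffin cells of the adrenal medulla. Neuroblastoma cells are known to occupy a noradrenergic state, held by a self-sustaining circuit of transcription factors that includes HAND2 and GATA3, or a mesenchymal state, held by factors such as PRRX1. The noradrenergic state is marked by the enzymes that make catecholamines, of which DBH converts dopamine to noradrenaline.

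The 2 libraries held 25350204 and 23684684 fragments on genes, counted on the strand that the reverse-stranded kit reports. A level is given below as TPM (transcripts per 1000000), the fragments of a gene per base of its exons, scaled so that all genes with exons of at least 200 bases add up to 1000000. A gene was called detected at 1 TPM or more in both libraries and silent at 0 fragments in both. A count of 0 allows up to 0.118 and 0.127 CPM (fragments per 1000000 gene fragments) in the 2 libraries (3 fragments each), and this limit covers counting error only. Of 19391 nuclear protein-coding genes, 10890 were detected (56.2%) and 4777 were silent (24.6%). The detected ones had a median of 14.5 TPM with quartiles at 6.21 and 32.0 TPM, and 676 genes reached a mean of 100 TPM.

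Nuclear protein-coding genes took 85.2% and 85.6% of the gene fragments, and 1011 and 1022 of these genes held 50% of that share. The class that GENCODE calls misc_RNA, which holds the 7SK and 7SL RNAs, followed with 6.69% and 6.77%. Long non-coding RNA genes took 2.22% and 2.18%, pseudogenes 0.582% and 0.608%, and the 13 mitochondrial protein-coding genes 0.479% and 0.373%. The shares of the first 4 classes were nearly the same in both libraries, while the mitochondrial share was higher in replicate 1. This did not hold for each gene. Of the 13 mitochondrial genes 6 were higher in replicate 1, among them MT-CO3 with 42800 and 26418 fragments. Their median log2 ratio of replicate 1 over replicate 2 was -0.05. A further 2282 gene identifiers had no entry in the annotation used here and took 4.57% and 4.20%. Outside the protein-coding class few genes were detected, with 1105 of 13043 long non-coding RNA genes, 1328 of 14205 pseudogenes and 86 of 2030 misc_RNA genes.

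**Figure D1:**
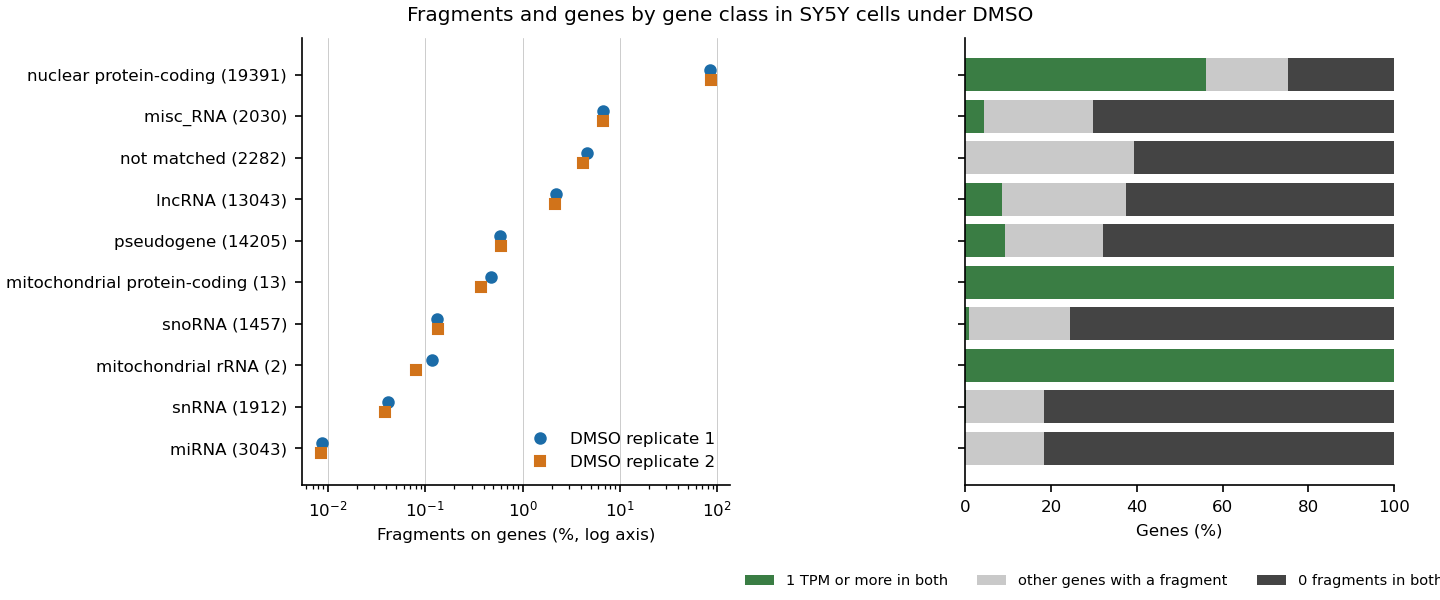
Left, share of gene fragments (%, log axis) taken by each gene class in each DMSO library; right, the percentage of genes in each class that were detected, held a fragment without being detected, or were silent, with the number of genes in parentheses. Identifiers without an annotation and genes under 200 bases have no TPM and cannot be detected. Among the classes drawn the points of the 2 libraries lie furthest apart for mitochondrial rRNA, and nuclear protein-coding genes are 56.2% detected and 24.6% silent.

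The single most abundant RNA was RN7SK, the 7SK RNA that holds the elongation factor P-TEFb inactive, with 1269828 and 1175232 fragments, or 5.01% and 4.96% of all gene fragments. RN7SL2, a gene of the RNA of the signal recognition particle, followed among named genes with 330670 and 327489 fragments. These short genes weigh even more per base: RN7SK stood at 346564 ± 502 TPM and RN7SL2 at 104100.0 ± 4834 TPM, so nuclear protein-coding genes shared only 43.4% of the TPM sum. On a scale of nuclear protein-coding genes alone, every one of their levels below would be 2.31 times higher, with the same order. Both RNAs have many near-identical copies, fragments with more than 1 mapping place go to no gene, and neither transcript carries a poly(A) tail; their levels are therefore uncertain. Among the 10 rows with the most fragments, 3 carried no gene symbol in the annotation used here. ENSG00000258486, with 594109 and 500451 fragments, and ENSG00000269900, with 207021 and 194736 fragments, had no entry in it. ENSG00000259001, with 257408 and 232823 fragments, is classed there as a long non-coding RNA gene on chromosome 14 (20811207 to 20811844, minus strand, hg19). The structural RNAs RN7SL1, RPPH1 and RMRP had no match by symbol. These rows may thus be known RNAs under older identifiers, which was not tested.

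Among nuclear protein-coding genes the top of the order by TPM belonged to histones, glycolysis and translation. This order depends on the exon length in the annotation. By fragments EEF1A1, with 10063 bases of exon, held 311679 and 275736, whereas H1-5, with 797 bases, held 34210 and 26621. H1-5, a linker histone, had 3882 and 3257 TPM, and H4C3, a core histone H4 gene, 3623 and 3233 TPM. GAPDH, a glycolytic enzyme, followed with 3374 and 3355 TPM, and the spread of its 2 values was the smallest of these. The ribosomal protein genes RPS27 (3071 ± 32.6 TPM) and RPS18 (2935 ± 495 TPM) followed with TMSB10, which encodes the actin-binding thymosin beta 10 (3015 ± 229 TPM). EEF1A1 and EEF2, the elongation factors of translation, stood at 2736 ± 91.2 and 2188 ± 60.4 TPM. RPS18 cannot be ordered against TMSB10 or EEF1A1, since its mean lies closer to theirs than its own SD. TMSB10 was above EEF1A1 by TPM in both libraries. By fragments TMSB10, with 461 bases of exon, was far below EEF1A1, at 16198 and 13488, so their order depends on exon length. Of 81 cytosolic ribosomal protein genes 77 were detected, beside 56.2% of all nuclear protein-coding genes. The 81 genes together took 7.90% and 7.57% of the gene fragments. RGS5, a regulator of G protein signalling, held 104070 and 116585 fragments, the most of any protein-coding gene after EEF1A1, and reached 1568 ± 209 TPM, rank 25 among nuclear protein-coding genes.

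Markers of the noradrenergic lineage were read first, with HAND2, GATA3 and DBH as the given ones. HAND2 (chromosome 4, 174446120 to 174451380, minus strand, hg19), a basic helix-loop-helix factor of sympathetic neurons, had 15130 and 14363 fragments, which gave 380.0 and 389 TPM. GATA3 (chromosome 10, 8087341 to 8117161, plus strand), a zinc finger factor of the same lineage, had 4249 and 5720 fragments and 113 and 164 TPM. DBH (chromosome 9, 136501485 to 136524451, plus strand) had 15472 and 12907 fragments and 509.5 and 458 TPM. All 3 markers were present at high levels in both libraries, at ranks 137, 432 and 101 of the 19391 nuclear protein-coding genes. The sample titles name no such state, and TH, another noradrenergic marker described below, had only 2 and 2 fragments.

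Of 25 matched transcription factors of the noradrenergic state 24 were detected, against 56.2% of all nuclear protein-coding genes, and 23 had a mean of at least 10 TPM. This list, like the others here, was chosen with earlier results of these data known. The share therefore describes its members and is no independent check of the state. HAND2 led with 384 ± 6.34 TPM. GATA2, the relative of GATA3, stood at 334 ± 22.8 TPM and was 2.47 ± 0.480 times as abundant as GATA3. PHOX2A, a paired homeodomain factor of the autonomic lineage, had 294 ± 19.4 TPM. The SoxC factors SOX4 and SOX11, which act in immature neurons, followed with 265 ± 40.2 and 160.2 ± 26.3 TPM. GATA3 had 139 ± 36.1 TPM and ISL1, a LIM homeodomain factor, 134 ± 22.1 TPM, again closer than their spread. In all, 8 of the factors had a mean of 100 TPM or more.

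A middle group ran from INSM2 (74.4 ± 17.3 TPM), a zinc finger factor, through TFAP2B (72.5 ± 5.47), MEIS2 (68.4 ± 5.98) and MYC (63.8 ± 1.61) to TBX2 (54.7 ± 0.678). LMO1, a LIM-only cofactor, stood at 42.2 ± 1.25 TPM and SIX3, a homeobox factor, at 33.0 ± 6.85 TPM. SATB1, KLF13, ZNF536, LMO3, MEIS1, KLF7 and EYA1 lay lower, between 13.4 and 25.6 TPM. MYCN, the oncogene that is amplified in many other neuroblastomas, had only 156 and 158 fragments and 5.36 ± 0.333 TPM, rank 8525, and its relative MYC was 11.9 ± 0.443 times as abundant. INSM1, a neuroendocrine zinc finger factor on chromosome 20, had 0 fragments in both libraries, on either strand and in the unstranded column, whereas its relative INSM2 had 1986 and 2568 fragments. The values of 20 of the 24 detected factors were higher in replicate 2 than in replicate 1, with a median log2 ratio of replicate 1 over replicate 2 of -0.14, and none was over 1.5-fold apart. Over all 12203 genes with at least 50 fragments in both libraries that median was 0.0055.

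**Figure D2:**
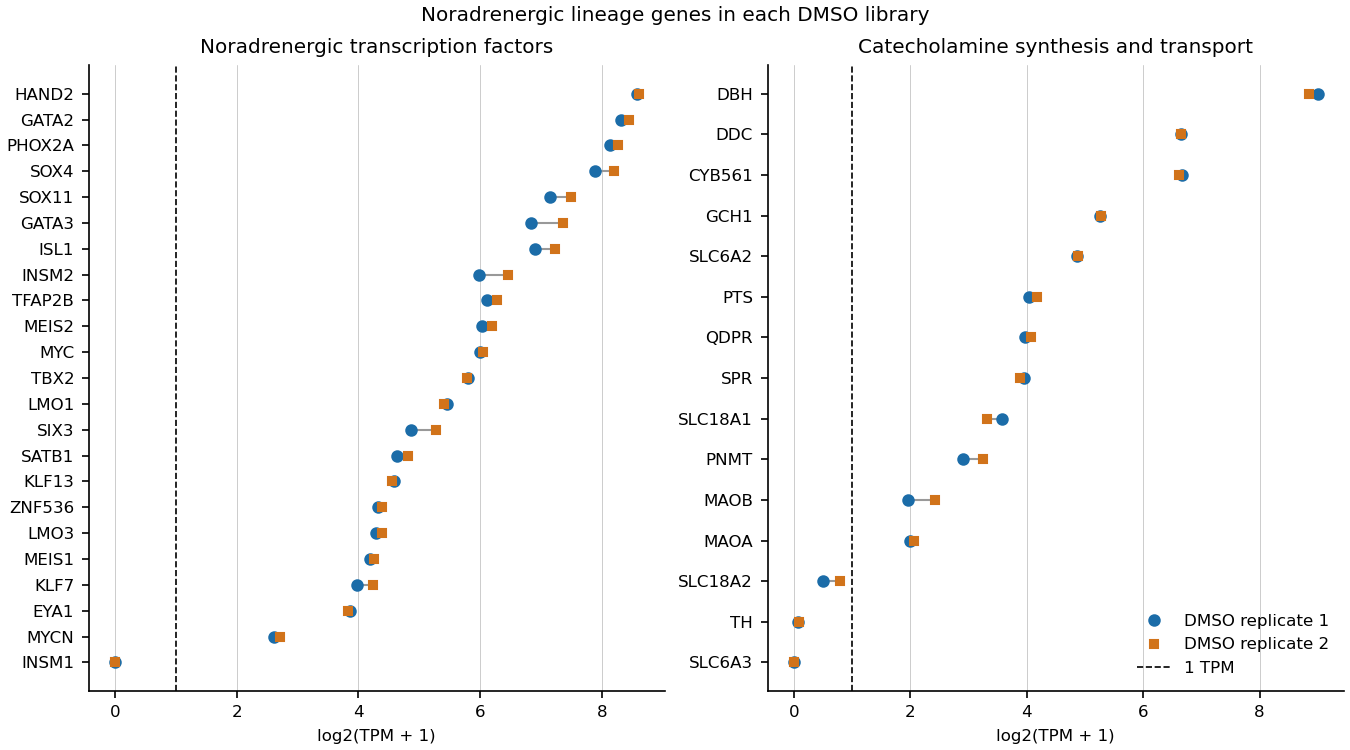
Level, as log2(TPM + 1), of noradrenergic transcription factors (left) and genes of catecholamine synthesis and transport (right) in DMSO replicate 1 (circles) and replicate 2 (squares), with a dashed line at 1 TPM. HAND2 and DBH lead their panels at means of 384 and 484 TPM, while INSM1, TH and SLC6A3 lie at or next to 0 in both libraries.

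The bases just upstream of the start sites show what sits at 4 of the most abundant lineage genes. The sequences are the 250 bases before an annotated start, from the RefSeq promoter table of GRCh38.p14, a later build than that of the counts, matched by gene symbol. Capitals mark the CCAAT box, the GC box GGGCGG, the cAMP response element core TGACGTC and, in HAND2 only, the homeodomain core TAATTA, each searched on both strands. HAND2 (chr4:173530230-173530479, minus strand) and GATA3 (chr10:8053391-8053640, plus strand) are shown because antisense genes start there, and DBH (chr9:133636113-133636362, plus strand) and CHGA (chr14:92922900-92923149, plus strand) because they are the enzyme and the granule protein of highest level.
HAND2: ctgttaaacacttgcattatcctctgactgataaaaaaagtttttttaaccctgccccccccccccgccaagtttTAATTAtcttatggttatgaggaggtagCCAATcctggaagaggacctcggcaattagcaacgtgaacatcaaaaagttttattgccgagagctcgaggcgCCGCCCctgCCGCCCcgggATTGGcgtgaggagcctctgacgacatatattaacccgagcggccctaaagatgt
GATA3: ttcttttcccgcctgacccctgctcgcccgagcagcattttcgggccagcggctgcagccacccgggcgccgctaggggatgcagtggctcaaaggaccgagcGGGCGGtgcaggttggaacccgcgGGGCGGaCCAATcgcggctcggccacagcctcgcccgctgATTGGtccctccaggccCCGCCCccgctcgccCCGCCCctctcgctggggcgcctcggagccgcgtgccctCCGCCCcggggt
DBH: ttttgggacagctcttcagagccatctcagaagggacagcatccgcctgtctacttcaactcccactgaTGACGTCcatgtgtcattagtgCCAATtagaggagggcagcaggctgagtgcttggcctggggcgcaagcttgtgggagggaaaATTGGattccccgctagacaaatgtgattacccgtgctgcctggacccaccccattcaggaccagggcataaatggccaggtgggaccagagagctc
CHGA: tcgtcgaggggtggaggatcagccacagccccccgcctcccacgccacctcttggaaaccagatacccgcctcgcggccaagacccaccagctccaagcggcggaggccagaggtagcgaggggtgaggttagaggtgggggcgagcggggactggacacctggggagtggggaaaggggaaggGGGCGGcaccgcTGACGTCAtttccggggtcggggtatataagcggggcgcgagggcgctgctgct

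DBH held 1 TGACGTC match, 181 bases before the start, and 2 CCAAT boxes. CHGA held the full palindrome TGACGTCA 54 bases before its start, which counts as 2 overlapping matches, and 1 GC box. Among all 35116 such windows, 3.12% held TGACGTC, 32.0% CCAAT, 42.6% GGGCGG and 4.35% TAATTA. Among the 13189 windows of detected genes, which all 4 genes shown are, the shares were 4.75%, 33.4%, 64.9% and 2.07%. The GATA3 window held 5 GC boxes and 2 CCAAT boxes in a window of 74.8% G and C, and HAND2 2 of each, with 1 TAATTA, in a window of 49.6% G and C. A match describes the letters only, and no binding was measured. The 300-base windows of HAND2 and of its antisense gene HAND2-AS1, on opposite strands, shared 272 bases, and those of GATA3 and GATA3-AS1 shared 291. Such sharing with a window of the opposite strand was found for 16.3% of all windows.

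The antisense partners were present at lower levels than the factors. HAND2-AS1 had 22.0 and 24.8 TPM and HAND2 was 16.5 ± 1.14 times higher. GATA3-AS1 had 15.2 and 13.1 TPM, with GATA3 9.99 ± 3.58 times higher. ISL1-DT, the divergent transcript of ISL1, had 11.1 and 9.22 TPM. Both GATA3 and ISL1 were higher in replicate 2 while their partners were higher in replicate 1, so these 2 ratios varied most for their size. Because the counts respect the strand, the fragments of each pair were kept apart.

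Genes of the catecholamine pathway were present from the cofactor to the vesicle, but TH, SLC18A2 and SLC6A3 were not detected. Of 16 genes 13 were detected, beside 56.2% of all nuclear protein-coding genes. GCH1, PTS, SPR and QDPR, which make and recycle the cofactor tetrahydrobiopterin, had 37.6 ± 0.459, 16.2 ± 1.14, 14.2 ± 0.517 and 15.2 ± 0.810 TPM. TH, tyrosine hydroxylase, the first and rate-limiting enzyme (chromosome 11, 2185159 to 2193045, minus strand), had only 2 and 2 fragments, or 0.0569 and 0.0613 TPM. No exon of another gene on the same strand overlaps the exons of TH in GENCODE release 44. The fragments were counted on release 19, so this cannot exclude that some were lost as ambiguous. DDC, which converts L-DOPA to dopamine, had 99.8 ± 0.213 TPM, and DBH, the next enzyme, 484 ± 36.2 TPM, 4.85 ± 0.352 times the level of DDC. CYB561, the cytochrome that supplies electrons for DBH inside the granule, had 99.1 ± 2.47 TPM. PNMT, which turns noradrenaline into adrenaline, had 83 and 101 fragments and 7.47 ± 1.43 TPM.

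Transport and breakdown genes ranged from silent to the level of SLC6A2. SLC6A2, the noradrenaline transporter, had 28.3 ± 0.0300 TPM, whereas SLC6A3, the dopamine transporter, was silent. Of the vesicular monoamine transporters SLC18A1 had 10.9 and 8.95 TPM and SLC18A2 0.417 and 0.733 TPM, from 19 and 31 fragments. MAOA and MAOB, which break catecholamines down, had 3.08 ± 0.123 and 3.61 ± 1.04 TPM. Among pathway genes with at least 50 fragments in both libraries MAOB was the only one over 1.5-fold apart, with 92 and 129 fragments.

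The RNAs of several proteins of the dense-core granules, in which catecholamines are stored, were abundant. CHGA, chromogranin A, had 16265 and 16990 fragments and 486 and 548 TPM, rank 95. VGF, a secreted neuropeptide precursor, followed with 251 and 212 TPM, SCG3 with 89.6 and 119 TPM and NPY, neuropeptide Y, with 107 and 91.5 TPM. CPE, CHGB, GAL and SCG2 lay together between 48.7 and 60.7 TPM. In all 11 of 14 granule genes were detected, beside 56.2% of all nuclear protein-coding genes. The prohormone convertases, which cut peptide precursors, were at the limit of counting: PCSK1 had 3 and 1 fragments, and PCSK2 0 and 1. PENK, proenkephalin, was silent, and VIP had 1.83 and 2.83 TPM.

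Neuronal markers were detected for 22 of 24 matched genes, beside 56.2% of all nuclear protein-coding genes, and ran over a wide range. STMN2, a microtubule regulator of growth cones, had 32843 and 33439 fragments and 1454 and 1597 TPM, rank 26. UCHL1, a neuronal ubiquitin hydrolase, stood at 437 ± 24.1 TPM, MAP1B at 156 ± 33.9, ELAVL4 at 109.7 ± 6.004, INA, the internexin of young neurons, at 103 ± 13.5 and GAP43 at 98.4 ± 10.05. MAP2, RTN1, NEFM, ELAVL3, NEFH and DCX followed between 28.2 and 73.7 TPM. Genes of synaptic vesicle release were lower by TPM, with SYT1 at 25.5 ± 0.482, SNAP25 at 9.74 ± 0.154, SYN1 at 6.39 ± 2.12 and SYP at 5.94 ± 0.159. For SNAP25, with 20369 bases of exon in the annotation, and SYT1, with 9463, this order depends on exon length. By fragments SNAP25 (2169 and 2057) and SYT1 (2633 and 2508) were above NEFM (1684 and 1607), whereas SYN1 and SYP were below it. TUBB3, the neuronal tubulin often used as a marker, had only 2.21 and 2.35 TPM, and 21.3% of its exon bases are also exons of other genes on its strand. MAPT, which encodes tau, had 1.86 and 1.99 TPM. PRPH, the peripherin of peripheral neurons, had 23 and 13 fragments, and RBFOX3, the NeuN antigen of mature neurons, 1 and 3 fragments. Among members with at least 50 fragments in both libraries DCX and SYN1 were over 1.5-fold apart, both higher in replicate 2.

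Markers of other transmitters were mostly not detected. Of 14, 2 were detected and 5 were silent, beside 56.2% and 24.6% of all nuclear protein-coding genes. FEV, an ETS factor known from serotonergic neurons, was the highest at 59.6 and 66.3 TPM, and SLC18A3, the vesicular acetylcholine transporter, had 15.4 and 12.2 TPM. The remaining genes of both phenotypes did not go with them. CHAT, which makes acetylcholine, had 6 and 2 fragments, SLC5A7, the choline transporter, had 0 in both libraries, and of the enzymes that make the serotonin precursor TPH1 had 9 and 12 fragments and TPH2 was silent. GAD1 and GAD2, the enzymes of GABA synthesis, and SLC17A6, a vesicular glutamate transporter, were silent.

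Of 30 genes of the mesenchymal state 7 were detected and 9 were silent, against 56.2% and 24.6% of all nuclear protein-coding genes. With a minimum of 10 fragments in both libraries in place of 1 TPM, 13 of the 30 were detected. TWIST1 was the exception in level, with 3803 and 3924 fragments and 172 and 192 TPM, rank 315. VIM, vimentin, had 946 and 860 fragments and 16.5 and 16.2 TPM. NOTCH2, FN1 (fibronectin), FOSL2, SNAI2 and NOTCH3 lay between 4.93 and 10.9 TPM. The factors PRRX1, MEOX1, MEOX2, RUNX1, RUNX2 and TWIST2 had 0 fragments in both libraries, as did CCN2, TGFBI and AXL. Of the Hippo pathway effectors YAP1 had 32 and 36 fragments and WWTR1 4 and 3. CD44, a surface marker of that state, had 5 and 6 fragments. The median of this list was 0.0537 TPM, beside 63.8 TPM for the noradrenergic factors and 2.90 TPM for all nuclear protein-coding genes.

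Markers of neural crest and Schwann cells were low as well, with 2 of 12 detected. Of all nuclear protein-coding genes 56.2% were detected and 24.6% were silent. PMP22, a myelin gene that other cells also use, had 2.56 and 2.10 TPM. The crest factors SOX10 and FOXD3 and the Schwann cell cadherin CDH19 were silent, and NGFR had 11 and 11 fragments. Among 26 matched markers of blood, endothelial, fibroblast, epithelial, muscle, liver, glial and pluripotent cells 14 were silent and 2 were detected, LUM with 1.83 and 1.83 TPM and EPCAM with 1.38 and 1.48 TPM. The summed level of these 26 genes was 3.89 and 4.36 TPM, and PTPRC, VWF, ALB, KRT5, HBB, GFAP and POU5F1 had at most 1 fragment in either library. Of 9 genes of the adrenal cortex, the steroid-making tissue next to the medulla, 7 were silent and the sum over the list was 6 and 1 fragments.

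Cell-cycle genes were present throughout, whereas 56.2% of all nuclear protein-coding genes were detected. All 42 matched S phase genes were detected, with a median of 47.7 TPM and a range from 8.27 TPM (E2F8) to 511 TPM (PCNA, the sliding clamp of replication). PCNA itself had 509.8 and 513 TPM, FEN1, the flap nuclease, 191 and 183 TPM and MCM2, a subunit of the replicative helicase, 191 and 167 TPM. All 54 genes of G2 and M phase were detected too, with a median of 73.9 TPM. HMGB2, a chromatin protein, was highest at 699.8 and 705 TPM, followed by TUBB4B at 399 ± 0.228 and CKS2 at 319 ± 15.8 TPM, and CDCA3 was lowest at 5.13 ± 0.611 TPM. TOP2A, topoisomerase II alpha, stood at 315 and 301 TPM, UBE2C, the ubiquitin conjugating enzyme of mitotic exit, at 302 and 268 TPM and MKI67, the gene of the Ki-67 antigen, at 67.0 and 96.2 TPM. In bulk RNA, more cells in a phase and more RNA per cell cannot be told apart. Replicate 1 was higher for 35 of 42 S phase and 41 of 54 G2 and M phase genes, by a median log2 ratio of 0.07 in each list, and no member was over 1.5-fold apart. Over all 12203 genes with at least 50 fragments in both libraries the median log2 ratio was 0.0055. Their median absolute log2 ratio was 0.11, so the shift of these lists is small.

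Among cyclins and their kinases, the G1 pair of cyclin D and CDK4 or CDK6 was prominent. CCND1 had 339 and 295 TPM, CCND3 12.1 and 10.9 TPM and CCND2 0 fragments in both libraries, so CCND1 was 27.5 ± 0.725 times as abundant as CCND3. CDK4 and CDK6 stood at 186 ± 3.88 and 172 ± 26.3 TPM, closer than their spread. CCNB1 and CCNA2, the mitotic and S phase cyclins, had 206 ± 9.47 and 135 ± 4.40 TPM, while CCNE1 and CCNE2 had 11.7 ± 1.02 and 14.3 ± 0.821 TPM. RB1, the retinoblastoma protein, had 44.2 ± 2.34 TPM and its relatives RBL1 and RBL2 18.9 ± 0.660 and 11.4 ± 0.178 TPM. Of 8 CDK inhibitors 7 were detected, beside 56.2% of all nuclear protein-coding genes. CDKN2C, which binds CDK4 and CDK6, was highest with 46.7 ± 0.0938 TPM, and CDKN3, a phosphatase that acts on CDK2, had 35.5 ± 4.35 TPM. CDKN1A (p21) had 491 and 358 fragments and 14.8 and 11.7 TPM, CDKN2A 2.25 ± 0.204 TPM and CDKN2B 4 and 3 fragments.

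The genes of the pathway under study were present without treatment, with 9 of 10 detected, beside 56.2% of all nuclear protein-coding genes. MDM2, a ubiquitin ligase, had 47.6 and 51.9 TPM, its relative MDM4 28.7 and 34.8 TPM and USP7, their deubiquitinase, 48.6 and 53.5 TPM. KMT5A, the gene of SETD8, which places the first methyl group on lysine 20 of histone H4, had 1371 and 1327 fragments and 29.4 and 30.7 TPM, rank 2927. KMT5B and KMT5C, which add further methyl groups, had 18.8 ± 0.305 and 6.18 ± 0.421 TPM, so that KMT5A was 1.60 ± 0.0740 times as abundant as KMT5B. PPM1D, a phosphatase of the DNA damage response, had 17.7 ± 0.566 TPM and PHF8, a demethylase of H4K20me1, 5.09 ± 0.560 TPM. L3MBTL1, a reader of methylated lysine, had 0.849 and 0.733 TPM and was the one not detected.

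Of 22 matched genes with a known part in neuroblastoma 18 were detected, beside 56.2% of all nuclear protein-coding genes. DLK1, a membrane protein related to the Notch ligands, was the highest with 12373 and 8069 fragments and 213 and 149.95 TPM, rank 317. ALK, the receptor kinase that is mutated in a part of neuroblastomas, had 50.5 and 49.8 TPM and RET, the receptor of GDNF ligands, 24.7 and 17.6 TPM. Of the neurotrophin receptors NTRK2 had 16 and 22 fragments and NTRK3 92 and 119 fragments. CD276 and GPC2, which are cell surface targets of antibodies, had 43.6 ± 0.655 and 26.6 ± 1.61 TPM. For the ganglioside GD2, the synthase B4GALNT1 had 10.5 and 11.3 TPM while ST8SIA1, the GD3 synthase that acts one step earlier, had 7 and 6 fragments. LIN28B, which blocks let-7 maturation, had 11.2 and 13.4 TPM, TERT 3.96 and 3.57 TPM and TERC, the RNA of telomerase, 417 and 402 TPM. CASP8, the initiator caspase of death receptors, had 3 and 0 fragments.

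HOX genes, which set position along the body axis, were split by cluster. Of 39 genes 22 were silent and 8 were detected, beside 24.6% and 56.2% of all nuclear protein-coding genes. All 10 genes of the HOXB cluster on chromosome 17 were silent, and the 11 genes of the HOXA cluster on chromosome 7 held 0 and 1 fragments in all. The HOXC cluster on chromosome 12 held 273 and 230 fragments with 3 of 9 genes detected, and the HOXD cluster on chromosome 2 held 1873 and 1567 with 5 of 9 detected. HOXD9 was highest with 30.8 and 29.0 TPM, then HOXD8 with 21.3 and 16.5 TPM, HOXD3 with 12.2 and 12.5 TPM and HOXC9 with 6.30 and 6.26 TPM. Within the HOXD cluster, HOXD4 between HOXD3 and HOXD8 had 3 and 2 fragments, so level did not follow gene order. The antisense RNAs HOTAIR, HOTTIP and HOTAIRM1 of the HOXA and HOXC clusters were silent.

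Antigen presentation genes were low apart from B2M. B2M, the light chain of HLA class I, had 2466 and 1987 fragments and 71.5 and 62.1 TPM. HLA-C had 1.95 and 1.40 TPM, while HLA-B had 1 and 1 fragments and HLA-E 10 and 11. The peptide transporters TAP1 and TAP2 and the immunoproteasome subunit PSMB9 were silent, PSMB8 had 1 and 0 fragments and PSMB10 10 and 11. NLRC5, the activator of class I genes, had 16 and 6 fragments, and CIITA, that of class II genes, was silent. HLA-DRA, HLA-DRB1 and HLA-DPA1 of class II were silent. In all 4 of 19 genes were detected and 8 were silent, beside 56.2% and 24.6% of all nuclear protein-coding genes. Exons of other genes on the same strand cover 30.7% of the exon bases of HLA-B and 39.4% of those of PSMB10, whose fragments can be lost there. HLA genes resemble each other and vary between people, and fragments that differ from the reference or map to several of them are missed, which makes their levels uncertain.

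Of 25 long non-coding RNAs 17 were detected, beside 8.47% of all long non-coding RNA genes. TERC led with 409 ± 10.3 TPM, followed by MALAT1, a nuclear speckle RNA, with 331 and 432 TPM and NORAD with 212 and 209 TPM. The snoRNA hosts GAS5 and SNHG1 had 104 ± 3.02 and 53.6 ± 1.64 TPM. NEAT1, the scaffold of paraspeckles, had 4.96 and 6.45 TPM. NBAT1 and CASC15, at a neuroblastoma susceptibility locus on chromosome 6, had 1.77 ± 0.265 and 3.12 ± 0.0753 TPM, and MYCNOS, antisense to MYCN, 6 and 13 fragments. H19, an imprinted RNA, was the only one of the list with at least 50 fragments in both libraries that was over 1.5-fold apart, with 4067 and 1585 fragments. Among the short structural RNAs without a TPM, RNU4-2 held 2320 and 2228 fragments, RNY1 144 and 143 and VTRNA1-2 none in either library. SNORA73B, a snoRNA just over the length minimum, had 11415 and 12680 fragments and SNORD3A (U3) 1849 and 725. Library preparation keeps few RNAs this short, so these counts say little of their level in the cell.

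Several gene families known from other tissues were mostly silent. Of all nuclear protein-coding genes 24.6% were silent and 56.2% were detected. Of 369 olfactory receptor genes 362 were silent and none was detected, and the whole family held 6 and 6 fragments. Of 92 keratin-associated protein genes 91, of 40 beta-defensin genes 38 and of 17 type I interferon genes 17 were silent. Of 55 keratin genes 50 were silent, and KRT10 alone was detected, at 8.03 and 8.66 TPM. Of 10 haemoglobin genes only HBQ1, the theta chain, was detected, at 6.51 and 6.28 TPM from 38 and 34 fragments. Taste receptor genes were silent in 23 of 27 cases, and TAS2R3 had the most, 6 and 10 fragments. Of 11 MAGE-A genes, which are active in testis and in tumours, 6 were silent, while MAGEA6 had 10.1 and 10.5 TPM and MAGEA12 1.61 and 1.04 TPM; these copies are alike and their counts uncertain. CYP2U1 at 9.23 ± 0.215 TPM and CYP51A1, an enzyme of cholesterol synthesis, at 5.39 ± 0.619 TPM led the 7 of 56 cytochrome P450 genes that were detected. At the other end, 421 of 500 zinc finger genes named ZNF and 33 of 38 proteasome genes were detected, with PSMB4 at 363 ± 19.1 and ZNF146 at 100.1 ± 3.26 TPM. Of the 370 immunoglobulin and T cell receptor segments 363 had no fragment.

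The 2 cultures differed little. Among 12203 genes with at least 50 fragments in both libraries, 185 were over 1.5-fold apart (1.52%), 54 of them higher in replicate 1 and 131 in replicate 2, and 84.8% lay within 1.2-fold. The SD of the log2 ratio fell from 0.29 for genes under 5 CPM, where counting alone gives a median of 0.22, to 0.16 for those over 500, where counting gives 0.01. Low genes thus varied mostly by counting and abundant ones by more than counting. The largest departures for their depth were SNHG3, a snoRNA host, with 19967 and 7663 fragments, RN7SL4P, a 7SL copy, with 2782 and 9940, and MT-CO3, a subunit of cytochrome oxidase, with 42800 and 26418. MT-RNR1, the small mitochondrial ribosomal RNA, had 8333 and 2967 fragments and H19 4067 and 1585, all but RN7SL4P being higher in replicate 1. PABPC1, SON, SRRM2, POLR2A and PCBP2, which act in mRNA synthesis, splicing and translation, were higher in replicate 2, POLR2A with 2175 and 4694 fragments and SON with 6032 and 9910.

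Histone genes moved together between the cultures. All 25 replication-dependent histone genes with at least 50 fragments were higher in replicate 1, for example HIST1H4B with 2757 and 1993 TPM and H2AC11 with 2458 and 1892 TPM. Their median log2 ratio was 0.36, beside 0.0055 for all 12203 genes with at least 50 fragments in both libraries. The family took 0.885% and 0.712% of the gene fragments. Genes of long genomic span leaned slightly the other way. Nuclear protein-coding genes were ranked by span into 5 equal bins, with median spans of 6.70 kb in the shortest and 178 kb in the longest. From the shortest bin to the longest, the median log2 ratio of replicate 1 over replicate 2 went from 0.05 to -0.05. The quartiles ran from -0.05 to 0.14 in the shortest bin and from -0.16 to 0.06 in the longest. Most cell-cycle genes were also higher in replicate 1, as given above, and their part in the histone difference was not tested. Of the 27 housekeeping genes HPRT1 was the only one over 1.5-fold apart, with 427 and 678 fragments.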

How the data were processed

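Total RNA of SY5Y cells was sequenced by the authors. Their methods name a strand-specific kit for total RNA after ribosomal RNA depletion, whereas the labels name a TruSeq RNA kit. The labels' extraction text names the compound for every sample, so groups were taken from the titles. Reads were trimmed with Trimmomatic 0.30 and aligned to hg19 with STAR 2.4.2a, per the submitters' processing notes. The authors deposited raw counts of fragments per gene (unstranded and for each strand), without pooling; 4 summary rows were left out of library sizes. The reverse-strand counts were used here, and the opposite strand held 4.67% and 4.64% of the fragments of both strands. Fragments mapping to several places (14.9% and 15.4% of all) were not assigned to a gene.

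Symbols, classes and exon lengths came from GENCODE release 44 on GRCh37 for 55538 identifiers, and 2282 had no entry. Its exon unions can exceed what the authors counted, which understates TPM. The authors counted on release 19, so overlap of exons in release 44 does not show where fragments were lost as ambiguous. RN7SK, covered at 99.1% by exons of other genes, still held 1269828 and 1175232 fragments. TPM was computed with Python 3.11.15 from counts per base over genes of at least 200 bases, and tested on simulated data. Values are the mean ± SD of 2 libraries. TMM factors came from edgeR 4.0.16; the processing notes name edgeR 3.10.5. The 2 treated libraries were not used here. A few list members count in the totals but are not reported by name here.

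The genes named were those of fixed lists, the 20 highest by TPM, the 10 highest by count, 2 per family, and the 10 with the largest chi-square between the libraries among genes over 1.5-fold apart. Members and lists were chosen with earlier results of these data known. Alternatives were unstranded counts, the longest transcript, a protein-coding denominator, a minimum of 10 fragments, a limit of 3 fragments for silent genes, TMM factors, no length minimum, and leaving out each replicate.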

Additional observations from a re-analysis of the deposited data

Results flagged for a closer look

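The opposite-strand counts, used above only for the check of INSM1 and the share of each strand, were high for some genes. There, 884 genes had at least 100 fragments in both libraries and over 10 times their own-strand fragments, of which 621 were long non-coding RNA genes and 163 nuclear protein-coding genes. TUBA1B-AS1 had 50611 and 42223 opposite-strand fragments beside 60 and 55 of its own, and SH3D19 had 26752 and 22346 beside 1225 and 1214. Both genes were picked after their values were seen. TUBA1B, on the minus strand of the same chromosome, had 57715 and 47614 fragments of its own. Whether opposite-strand fragments come from such a partner gene was not tested. Such a gene would rank as abundant under the wrong strand setting. No group reached the size at which single outlying samples can be tested.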

How the results depend on the processing

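The counts of detected and silent genes kept within 1.5-fold of their values under every alternative run, and the count of noradrenergic factors detected was 24 by the longest transcript, with the protein-coding denominator, by a minimum of 10 fragments and without either replicate; it was not recomputed without regard to strand. Detected nuclear protein-coding genes numbered 10976 without regard to strand, 10989 by the longest transcript, 11617 with the protein-coding denominator and 12106 by a minimum of 10 fragments in both libraries. Without replicate 1 there were 10983 detected and 33334 silent genes, and without replicate 2 10985 and 33090. Mesenchymal state genes rose from 7 to 13 under the minimum of 10 fragments, which admits long genes at low TPM, and to 9 with the protein-coding denominator. The protein-coding share, mitochondrial genes included, was 85.8% on the reverse strand and 85.3% without regard to strand. Genes over 1.5-fold apart numbered 811 of 15378 with a minimum of 10 fragments in place of 185 of 12203, and 187 with TMM factors. Of the 20 highest genes by TPM, 15 stayed among them by the longest transcript. Levels depend on the exon length and the denominator: HAND2 stood at 416 TPM by the longest transcript and at 886 TPM with the protein-coding denominator. Depth limits single low genes, and 2 libraries of 1 line give no estimate for other cultures. No paired analysis was possible because the result comes from no test.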

Other observations

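Imprinted genes, of which the cell uses the copy of 1 parent, were picked after the levels were seen and were uneven within their clusters. Of 22 genes, some of them non-coding, 11 were detected and 3 were silent, beside 56.2% and 24.6% of all nuclear protein-coding genes. At the DLK1 cluster on chromosome 14, DLK1 had 12373 and 8069 fragments and RTL1, a retrotransposon-derived gene of the same cluster, 1445 and 2109, while the non-coding MEG3 had 0 in both libraries and MEG8 11 and 9. DLK1 is known to be read from the paternal copy and MEG3 from the maternal one. At the cluster on chromosome 11, H19 had 106 and 44.6 TPM, IGF2, the growth factor, 8.11 and 7.45 TPM and CDKN1C 20.3 and 18.4 TPM, and PHLDA2 was silent. Exons of other genes on the same strand cover 43.2% of the exon bases of IGF2, where fragments can be lost as ambiguous. DLK1 and H19 were higher in replicate 1 and RTL1 in replicate 2.

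Elsewhere, GNAS, PEG10 and NNAT stood at 159 ± 4.81, 155 ± 5.75 and 144 ± 29.6 TPM. The genes of the Prader-Willi region on chromosome 15 were low, with SNRPN at 46 and 29 fragments, NDN at 0 and 3 and MAGEL2 at 0 in both libraries. Such overlap covers 43.9% of the exon bases of SNRPN and 52.9% of those of MAGEL2. PEG3 had 11.1 ± 0.198 TPM, whereas MEST had 9 and 8 fragments, GRB10 1 and 1 and DIRAS3 2 and 2. The exon length of GNAS sums many transcripts, so its TPM is understated.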
